A study of Bos taurus with 27 samples.

Results

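The colon of 9 newborn male Holstein calves that received their first colostrum at 6 h after birth (TRT6) was compared by the parity of the dam. These calves were 9 of the 27 in the series. Of the 9, 5 were born to multiparous cows (TRT6_C, calves 4134, 4140, 4144, 4151 and 4154) and 4 to primiparous heifers (TRT6_H, calves 4114, 4122, 4125 and 4146). The parity of each dam was taken from the study's record of animals, since the sample labels carry only the feeding strategy. All calves were separated from the dam at birth, were given the same pooled, pasteurized colostrum through an esophageal tube, and later received milk replacer, so that no calf drank the milk of its own dam. Tissue was taken at 51 h of age from the first part of the colon beyond the ileo-cecal junction, rinsed and frozen. Each calf contributed 1 RNA sequencing library from bulk tissue, so that fewer cells of a type and less RNA per cell cannot be told apart. The remaining 18 calves, fed immediately (TRT0, 9 calves) or at 12 h (TRT12, 9 calves), served only to show where the TRT6 calves lay.

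The wall of the colon joins an absorptive and mucus-secreting epithelium to a lamina propria with immune cells, vessels and fibroblasts, and to layers of smooth muscle. In the newborn calf this tissue meets its first bacteria and its first feed within hours, while the animal still depends on maternal immunoglobulin taken in with colostrum. Chemokines are small secreted proteins that attract leukocytes through receptors on those cells, and epithelial cells of the crypt and goblet lineage secrete the mucus and antimicrobial proteins that keep bacteria away from the wall.

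As deposited, the 9 libraries held between 1163791 and 2949345 counts, with a median of 1814105 in TRT6_C and 1597725 in TRT6_H. Thus 3 reads corresponded to between 1.02 and 2.58 CPM (counts of a gene scaled to a library of 1000000 counts). A gene was tested where it reached 1 CPM in at least 4 of the 9 calves, which left 14817 of 24616 genes. Markers of colonic epithelium were present in every calf: AQP8, a water channel of surface colonocytes, lay between 98.5 and 158 CPM in TRT6_C and between 114 and 185 CPM in TRT6_H, and MYH11, the myosin of smooth muscle, between 2412 and 4995 CPM and between 2560 and 4213 CPM. As a whole, calves of the same parity were no closer to each other than calves of different parity. The root mean square difference in log2(CPM + 1) had a median of 0.741 over the 10 pairs within TRT6_C, 0.724 over the 6 pairs within TRT6_H and 0.727 over the 20 pairs between them.

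No gene passed the threshold of an adjusted p of at most 0.10 with a fold change of at least 1.2 in edgeR's quasi-likelihood test (0 of 14817, 0%). The lowest adjusted p was 0.282, shared by CCL14 and 3 genes without a symbol. At an unadjusted p under 0.05 there were 460 genes (3.10%), of which 251 (1.69%) were higher in TRT6_C and 209 (1.41%) lower. Without scaling factors for the library totals this split became 308 higher and 93 lower. Other tests on the same counts did call genes: the likelihood ratio test of edgeR called 9 (0.0607%), its exact test 7 (0.0472%) and DESeq2 5 (0.0337%). At an unadjusted p under 0.05 these tests gave 505, 444 and 296 genes. In CPM, every TRT6_C calf lay above every TRT6_H calf for 101 genes (0.682%) and below for 39 (0.263%). On scaled library sizes these counts were 82 (0.553%) and 79 (0.533%).

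**Figure D1:**
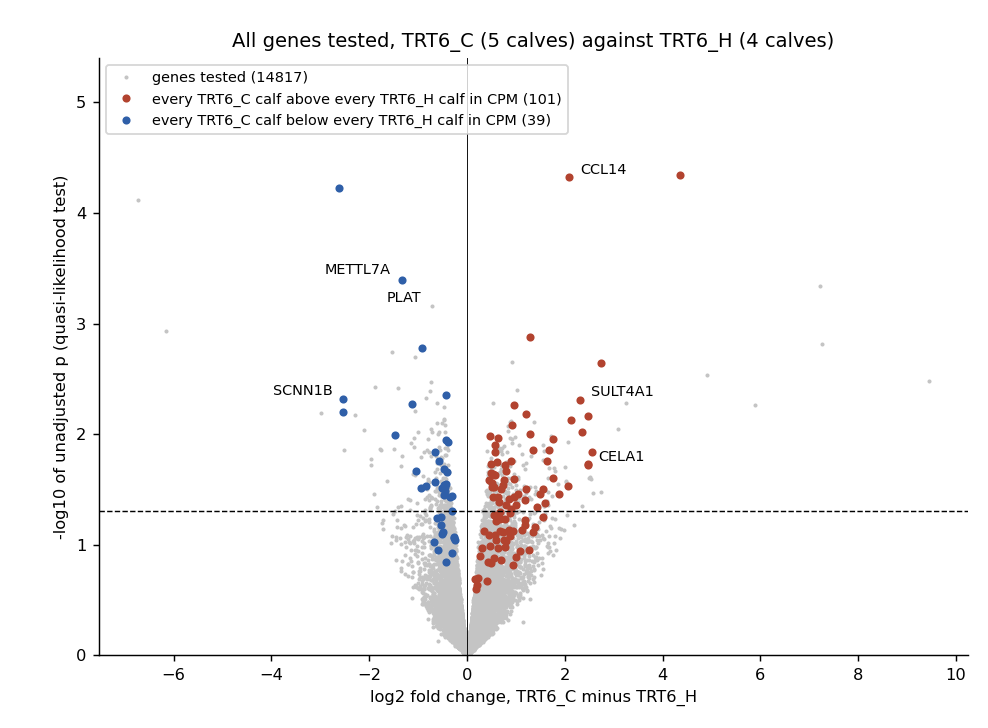
Each point is 1 of the 14817 genes tested, with the log2 fold change (TRT6_C minus TRT6_H) on the horizontal axis and -log10 of the unadjusted p on the vertical axis. The dashed line marks a p of 0.05, red and blue points are the 101 and 39 genes whose groups did not overlap in CPM, and CCL14 is among the highest points.

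CCL14, a CC chemokine that circulates as an inactive precursor and is activated by proteolytic trimming, stood apart most clearly among the named genes. In TRT6_C its level was 9.49, 10.5, 10.8, 17.0 and 8.59 CPM in calves 4134, 4140, 4144, 4151 and 4154. In TRT6_H it was 2.26, 3.16, 3.64 and 0.784 CPM in calves 4114, 4122, 4125 and 4146. Every calf of a cow was above every calf of a heifer, with calf 4151 highest and calf 4146 lowest. The group means were 11.3 ± 3.29 CPM (SD, n = 5) and 2.46 ± 1.26 CPM (SD, n = 4), and the fitted log2 fold change was 2.09 (SE 0.37), a 4.26-fold difference. Its unadjusted p in the quasi-likelihood test was 4.77e-05 and its adjusted p 0.282, which did not pass. The study picked CCL14 for this contrast in the same 9 calves, so its separation is a description and no independent evidence.

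CCL14 rested on few reads, between 10 and 45 per library in TRT6_C and between 1 and 7 in TRT6_H. The adjusted p ranged from 6.96e-04 to 0.975 over the alternatives, and 4 of them called it: DESeq2, the likelihood ratio test, the exact test and the quasi-likelihood test without a filter on low counts. Its log2 fold change stayed between 1.87 and 2.29 when each calf was left out in turn. Within the libraries whose names carry run part 006, the means were 10.3 CPM (3 TRT6_C calves) and 1.97 CPM (2 TRT6_H calves), and in part 007 they were 17.0 CPM (1 calf) and 2.95 CPM (2 calves).

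Most calves of the other feeding groups lay between both parities of TRT6. CCL14 ranged from 3.16 to 12.8 CPM in TRT0 (median 5.28) and from 1.97 to 8.75 CPM in TRT12 (median 5.79). Of these 18 calves, 15 were below every TRT6_C calf and 16 were above every TRT6_H calf. Within the TRT6_C range lay 3 of them, and within the TRT6_H range 2. Each feeding group held calves of both parities, so these levels give no reference for either parity. The parity of these 18 dams was not used here.

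**Figure D2:**
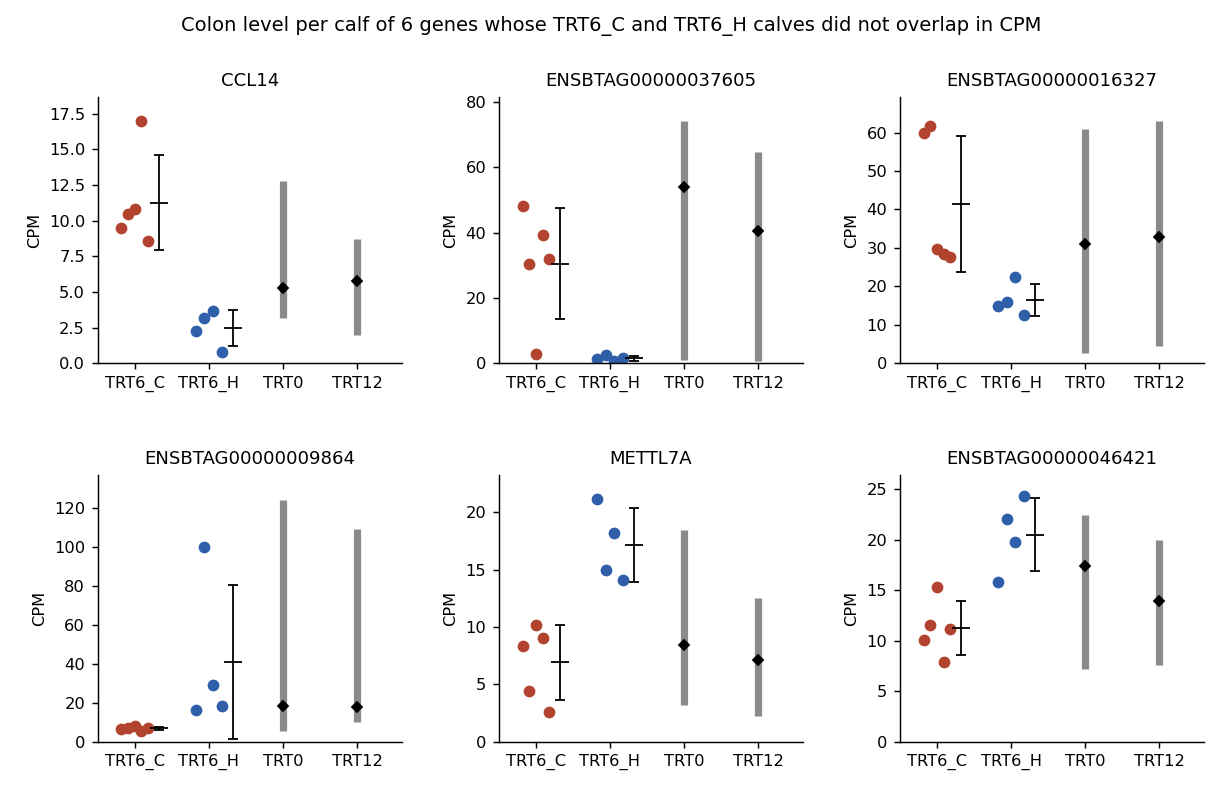
Level in CPM of 6 genes in each TRT6_C calf (red) and TRT6_H calf (blue), with the mean and SD beside the points, and the range (grey bar) and median (diamond) of the 9 TRT0 and 9 TRT12 calves. CCL14 spans 8.59 to 17.0 CPM in TRT6_C and 0.784 to 3.64 CPM in TRT6_H, and most calves of the other feeding groups fall between.

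In CPM, no other chemokine tested separated the groups. Of the 10 members of the CC and CXC chemokine list that could be matched to a gene, 8 were tested and none passed. Only 1 was higher at an unadjusted p under 0.05 (CCL14) and 1 was lower (CXCL5), with a median log2 fold change of -0.15 over the 8. CXCL5, an attractant of neutrophils, was 3.56, 4.96, 12.2, 6.03 and 6.01 CPM in TRT6_C and 8.12, 15.8, 13.5 and 6.28 CPM in TRT6_H. The groups overlapped, and its unadjusted p of 0.0473 became 0.168 without calf 4122. CXCL12, which holds leukocytes in tissue and was the most highly counted member, had a log2 fold change of -0.25 (SE 0.24), and CXCL17 of the mucosa had -0.39 (SE 0.19, unadjusted p = 0.0564). CXCL17 overlapped in CPM, while on scaled library sizes every TRT6_C calf lay below every TRT6_H calf. Among 4 chemokine receptors tested, 3 had a negative log2 fold change, and their values lay between -0.36 and 0.03. The receptors on which CCL14 acts best could not be matched to a gene here, except CCR3, which stayed under the filter at 0 to 2.35 CPM.

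Among proteases and matrix molecules that process or hold CC chemokines, 6 members were tested, 5 had a negative log2 fold change and 1, PLAT, was at an unadjusted p under 0.05. PLAT, tissue plasminogen activator, turns plasminogen into plasmin. It was 51.0, 48.0, 82.4, 71.6 and 46.4 CPM in TRT6_C and 91.2, 90.9, 129 and 67.5 CPM in TRT6_H. In CPM only calf 4146 of the heifer group lay within the range of the cow group, and on scaled library sizes the groups did not overlap. Its log2 fold change was -0.72 (SE 0.17, unadjusted p = 6.88e-04, adjusted p = 1), and the unadjusted p stayed under 0.05 without any single calf. HSPG2, the large heparan sulfate proteoglycan of basement membranes, had a log2 fold change of 0.04 (SE 0.23).

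Marker genes of vessels and immune cells did not separate the parities. Summed over 6 markers of blood and lymphatic endothelium, the level was 413 to 553 CPM in TRT6_C and 430 to 528 CPM in TRT6_H. The 5 markers of macrophages and dendritic cells summed to between 78.3 and 203 CPM and between 115 and 155 CPM, and 4 of T and NK cells to a mean of 15.8 ± 2.87 CPM (SD, n = 5) and 13.1 ± 5.02 CPM (SD, n = 4). Many defining immune markers had no match to a gene identifier, and the part of cell make-up in the CCL14 difference was not tested.

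The 5 genes whose log2(CPM + 1) followed CCL14 most closely over the 9 calves were ENSBTAG00000019454, ENSBTAG00000033166 and ADAMTS5 (Pearson r of 0.94 each), ENSBTAG00000010379 (0.92) and ENSBTAG00000030690 (0.91). They were picked for this likeness out of all genes tested, and the 9 calves also differ in depth, so no test is given. ADAMTS5, a protease that cuts proteoglycans of the matrix, was 22.5, 20.9, 26.4, 28.3 and 22.3 CPM in TRT6_C and 18.1, 18.2, 16.7 and 14.1 CPM in TRT6_H. Its groups did not overlap, which follows in large part from its choice by likeness to CCL14.

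RGS2, a regulator that shortens G protein signals, was examined as the other gene the study names for dam parity. For parity the study named it in TRT0, where it was higher in the calves of cows, and not in TRT6. Between feeding times the study also reported RGS2 as higher in TRT6_H than in the calves of heifers in TRT0. Among calves of cows it reported RGS2 as lower in TRT12 than in TRT0. In the TRT6 calves RGS2 was 2.37, 6.06, 2.37, 4.14 and 3.44 CPM in TRT6_C and 7.22, 10.3, 5.73 and 3.14 CPM in TRT6_H. The groups overlapped through calves 4140, 4151, 4154, 4125 and 4146. The mean difference was -2.91 CPM. The fitted log2 fold change was -0.90 (SE 0.44, unadjusted p = 0.0577), and -0.65 without calf 4122. Over the other feeding groups RGS2 covered 0 to 10.2 CPM in TRT0 and 0 to 9.13 CPM in TRT12.

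The gene with the lowest unadjusted p, ENSBTAG00000037605, has no symbol in the tables used here. It was 48.1, 30.3, 2.71, 39.2 and 31.8 CPM in TRT6_C and 1.35, 2.37, 0.521 and 1.57 CPM in TRT6_H. Of the calves of cows 4 were high, while calf 4144 was barely above the heifer group, and on scaled library sizes the groups overlapped. The 4 TRT6_H libraries held 9 reads in all against 285 in TRT6_C, a ratio of rates of 20.6 with an exact 95% interval of 10.7 to 45.5 that covers counting error only. Over the other feeding groups it was 0.959 to 74.1 CPM in TRT0 and 0.761 to 64.6 CPM in TRT12, with 8 of 18 calves above and 4 of 18 below the TRT6_C range, so both states also occurred there. Its adjusted p in edgeR's quasi-likelihood test was 0.282, and 1.03e-05 without calf 4144.

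In the opposite direction, ENSBTAG00000009864 was even across the calves of cows and uneven across the calves of heifers. It was 6.53, 7.17, 7.80, 5.65 and 6.87 CPM in TRT6_C and 16.2, 99.6, 29.2 and 18 CPM in TRT6_H. The groups did not overlap, and calf 4122 was far above the rest. On the log2 scale the fold change was -2.61 (SE 0.48, unadjusted p = 5.90e-05, adjusted p = 0.282), and -1.68 (unadjusted p = 1.47e-05) without calf 4122. Of the 18 calves fed at other times, 16 lay above every TRT6_C calf.

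METTL7A, a methyltransferase-like protein of the endoplasmic reticulum and lipid droplets, was the lowest-p named gene on the heifer side. Its level was 8.31, 4.41, 10.2, 9.04 and 2.58 CPM in TRT6_C and 21.2, 15, 18.2 and 14.1 CPM in TRT6_H. All 4 calves of heifers lay above all 5 calves of cows, and 16 of the 18 calves of the other feeding groups also lay below the TRT6_H range. The log2 fold change was -1.33 (SE 0.30, unadjusted p = 4.02e-04, adjusted p = 1). The likelihood ratio test and the exact test of edgeR called it, with adjusted p of 0.0249 and 0.0247, while DESeq2 did not.

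The further genes of low p on this side were higher in mean in TRT6_H, and none passed the test. TCN1, a secreted binder of vitamin B12, was 163, 114, 192, 171 and 50.7 CPM in TRT6_C and 255, 364, 184 and 289 CPM in TRT6_H (log2 fold change -1.07, SE 0.29, unadjusted p = 0.00201). A2M, a broad inhibitor of proteases, was 571, 418, 708, 714 and 882 CPM against 655, 1156, 1230 and 1119 CPM (-0.73, SE 0.21, unadjusted p = 0.00339). Both overlapped through a single heifer's calf, 4125 for TCN1 and 4114 for A2M. TGM3, a transglutaminase that cross-links proteins in surface epithelia, ranged from 63.9 to 220 CPM and from 137 to 534 CPM, and LOC508916, annotated as a carboxylesterase 1-like gene, from 8.27 to 18 CPM and from 8.12 to 60.4 CPM. Their log2 fold changes were -1.42 (SE 0.42) and -1.54 (SE 0.41), with calves 4122 and 4125 high for TGM3 and calves 4125 and 4146 high for LOC508916. ENSBTAG00000046421 did not overlap (7.91 to 15.3 CPM against 15.8 to 24.3 CPM), while ENSBTAG00000001725 (4.75 to 18 CPM against 7.06 to 80.2 CPM) and ENSBTAG00000002097 (25.4 to 61.9 CPM against 51.5 to 99.4 CPM) did.

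On the side of the cows, the remaining low-p genes were mostly without a symbol. ENSBTAG00000016327 was 59.9, 61.7, 29.8, 28.3 and 27.5 CPM in TRT6_C and 14.9, 15.8, 22.4 and 12.6 CPM in TRT6_H (log2 fold change 1.29, SE 0.33, unadjusted p = 0.00131), without overlap. Calves 4134 and 4140 were about level with each other and well above the other 3. ENSBTAG00000007966 (log2 fold change 0.91, SE 0.25), ENSBTAG00000019097 (1.03, SE 0.31) and ENSBTAG00000038865 (0.54, SE 0.17) were higher in mean but overlapped in CPM. On scaled library sizes ENSBTAG00000038865 did not overlap. SULT4A1, a sulfotransferase best known from brain, was 4.75, 3.86, 2.03, 2.64 and 3.44 CPM in TRT6_C and 0.903, 0, 1.04 and 0 CPM in TRT6_H. That is 32 reads against 4. ENSBTAG00000015449 held 25 reads against 2, and ENSBTAG00000042388 had no read in TRT6_H and at most 2.71 CPM in TRT6_C, too few for a fold. These 3 genes passed the filter only through their counts in TRT6_C, so a difference in that direction was built into their selection.

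Some of the smallest p values came from genes that were nearly silent in most of the 9 calves and very high in 1 to 3 of them. ENSBTAG00000045494 reached 776 and 263 CPM in calves 4114 and 4122, was 12.6 CPM in calf 4146, and was at most 5.76 CPM in the other 6. ENSBTAG00000046695 reached 197, 1397 and 757 CPM in calves 4134, 4140 and 4144 and was at most 6.25 CPM elsewhere. ENSBTAG00000045632 was 1464 and 782 CPM in calves 4140 and 4154 and at most 4.14 CPM elsewhere, and ENSBTAG00000048205 was 2663 CPM in calf 4144 alone. Among calves fed at other times the highest levels of these genes were 1201, 3701, 2810 and 1833 CPM, in that order. High levels of ENSBTAG00000045632 were common there, with a median of 214 CPM over the 9 TRT12 calves, and 3 of the 18 calves exceeded every TRT6_C calf for ENSBTAG00000046695. MIR2904-1, a locus annotated as a microRNA gene, was 4438 CPM in calf 4122 and 168 CPM in calf 4125, with at most 56.2 CPM elsewhere. Its counts are reads over the locus, and mature microRNA was not measured. The log2 fold change of MIR2904-1 went from -6.15 to -1.89 (unadjusted p = 0.0762) without calf 4122. For all 5 of these genes the groups overlapped in CPM.

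The gene lists were read against the genes that carry a symbol, since only those can be list members. Among 3865 such genes tested, 38.1% had a positive log2 fold change and the median was -0.06, against 51.8% and 0.01 over all genes tested. Of these, 40 were higher and 101 lower at an unadjusted p under 0.05. A list that leans towards negative values therefore starts from a lean of the named genes as a whole. Without calf 4122 the corresponding counts were 34 and 44, the median of the named genes was -0.04 and 41.3% were positive.

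**Figure D3:**
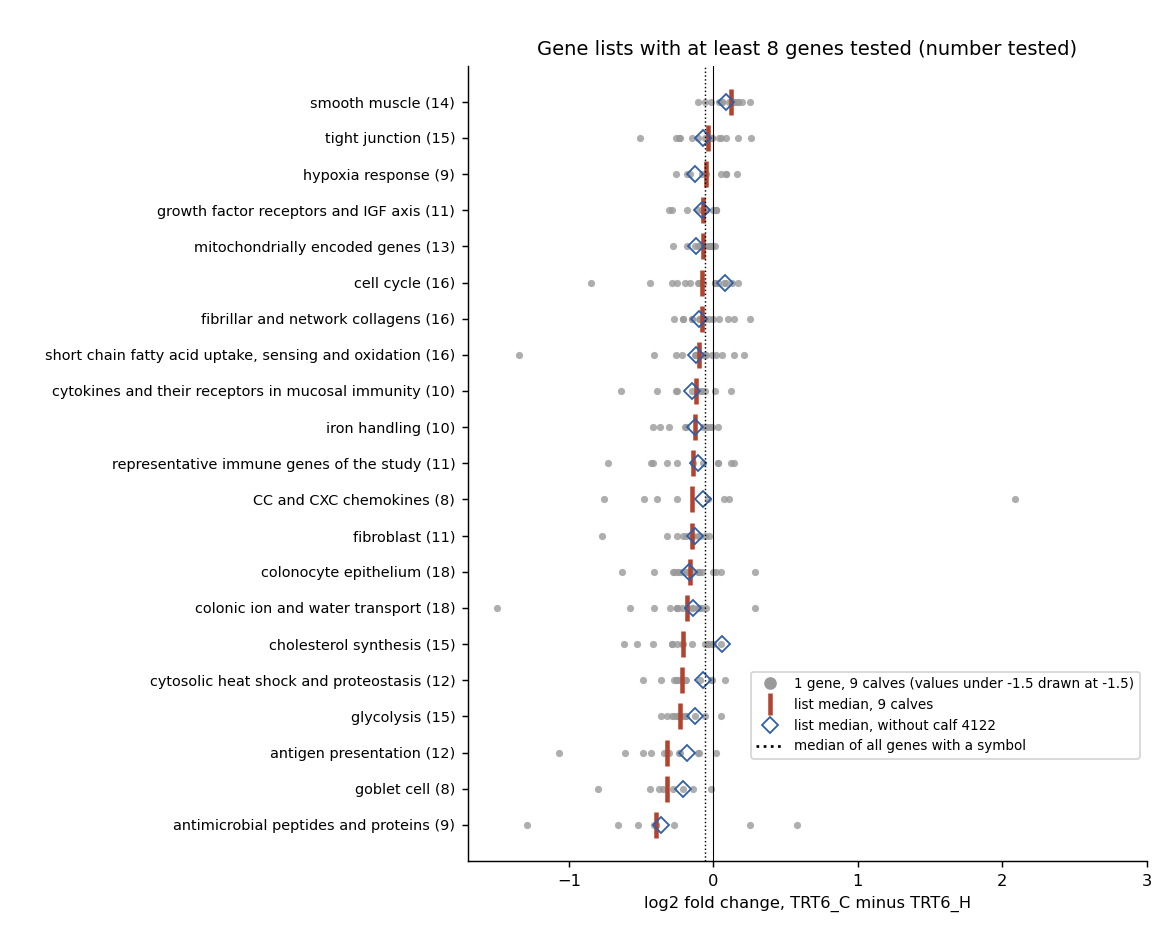
Log2 fold change (TRT6_C minus TRT6_H) of the members of each gene list with at least 8 genes tested, with the list median over the 9 calves (red bar) and without calf 4122 (blue diamond). Medians run from -0.40 for antimicrobial genes to 0.12 for smooth muscle, and the dotted line marks the median of -0.06 over all genes with a symbol.

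Goblet cell genes leaned towards the calves of heifers. All 8 goblet cell genes tested had a negative log2 fold change, with a median of -0.32, and 2 were at an unadjusted p under 0.05. None was called. AGR2, a disulfide isomerase that folds mucins, was 248, 476, 485, 319 and 248 CPM in TRT6_C and 346, 1130, 487 and 408 CPM in TRT6_H. Calf 4122 was well above every other calf, and the log2 fold change went from -0.80 (SE 0.32, unadjusted p = 0.0257) to -0.26 (unadjusted p = 0.309) without it. MUC1, a membrane-bound mucin, was 110, 135, 192, 188 and 160 CPM in TRT6_C and 188, 190, 203 and 193 CPM in TRT6_H. Its difference did not rest on calf 4122, with a log2 fold change of -0.38 (SE 0.15, unadjusted p = 0.0219) and again -0.38 (unadjusted p = 0.0355) without that calf. In the same test the unadjusted p of MUC1 was 0.0600 without calf 4134. Its groups overlapped in CPM and did not overlap on scaled library sizes. The most highly counted member, the membrane mucin MUC13, had a log2 fold change of -0.35 (SE 0.22), and CLCA1, a secreted component of mucus, of -0.44 (SE 0.25).

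OLFM4, a secreted glycoprotein of crypt base cells, was 1088, 1491, 2309, 1352 and 981 CPM in TRT6_C and 1913, 3294, 2004 and 1848 CPM in TRT6_H. Only calf 4144 of the cow group reached the level of the heifer group. The log2 fold change was -0.73 (SE 0.25, unadjusted p = 0.00900), and -0.48 (unadjusted p = 0.0607) without calf 4122. The other 2 crypt stem cell genes tested, LRIG1 and CD44, had log2 fold changes of 0.07 and 0.05, and the list median was 0.05 (-0.04 without calf 4122). In the other feeding groups OLFM4 ranged from 1148 to 2482 CPM (TRT0) and from 1431 to 2727 CPM (TRT12).

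**Figure D4:**
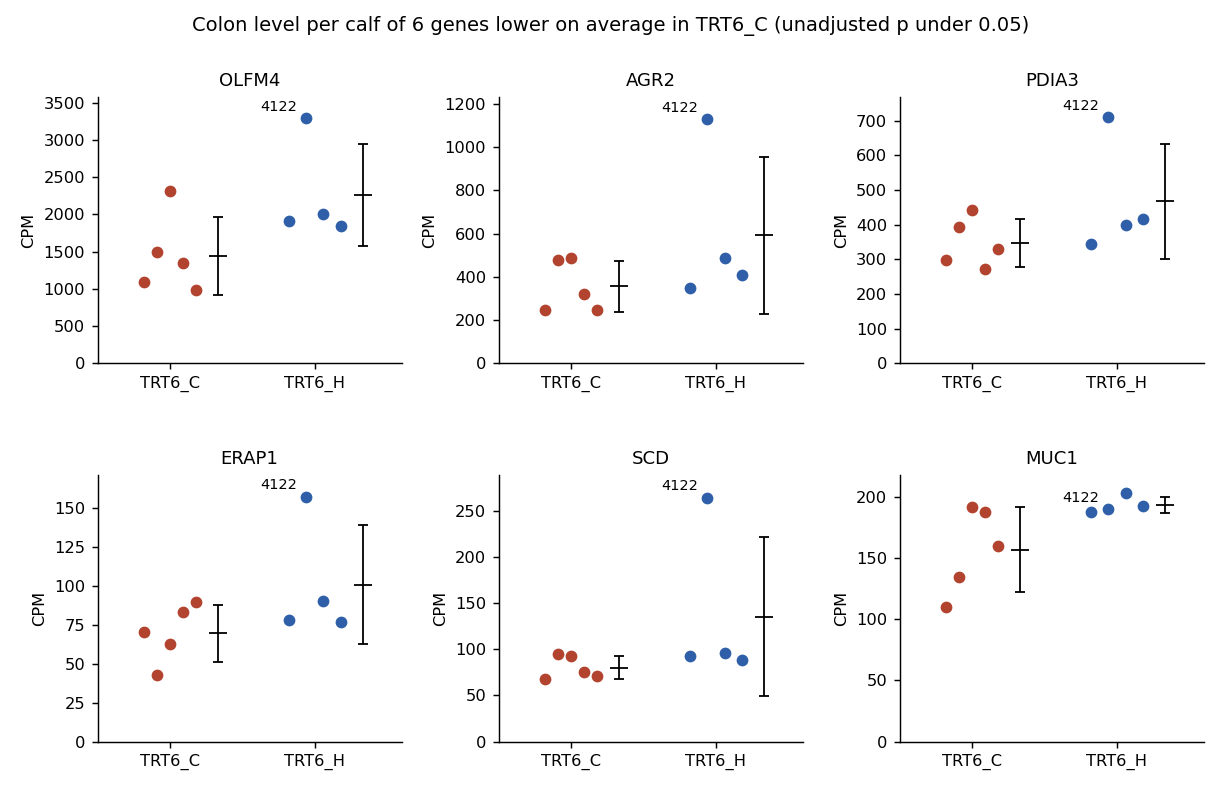
Level in CPM of 6 genes in each calf, with the mean and SD beside the points and calf 4122 labelled. Calf 4122 lies above the other 8 calves for OLFM4, AGR2, PDIA3, ERAP1 and SCD, and within the narrow range of 188 to 203 CPM of the heifer group for MUC1.

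Ion and water transport genes showed the same lean. Of 18 genes of colonic ion and water transport, 17 had a negative log2 fold change (median -0.18), 1 was at an unadjusted p under 0.05 and none was called. That gene was SCNN1B, a subunit of the epithelial sodium channel, at 0, 0.551, 0.339, 0.377 and 0 CPM in TRT6_C and 1.35, 2.37, 1.04 and 3.14 CPM in TRT6_H. Its groups, alone among the 18 genes, did not overlap in CPM, but this was 3 reads against 12, a ratio of heifer to cow rates of 6.15 (exact 95% interval for counting error 1.66 to 34.0). The gene was tested only through its counts in TRT6_H and did not pass the filter when calf 4122 was left out. CA2, a carbonic anhydrase, had a log2 fold change of -0.41 (SE 0.19) and SLC12A2, the chloride importer of secreting cells, -0.30 (SE 0.17). Tight junction genes had a median of -0.04 (0.01 without scaling factors), with 0 of 15 at an unadjusted p under 0.05.

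Of the 18 colonocyte epithelium genes tested, 14 had a negative log2 fold change and none was at an unadjusted p under 0.05. EPCAM, which marks all epithelial cells, was 354, 462, 400, 344 and 462 CPM in TRT6_C and 457, 466, 487 and 479 CPM in TRT6_H. Of the calves of cows 2 lay within the heifer group and 3 below it, and the log2 fold change was -0.27 (SE 0.17). ANPEP, a brush border peptidase shared with small intestine, was 1140, 330, 487, 355 and 308 CPM in TRT6_C and 919, 1017, 602 and 571 CPM in TRT6_H. Calf 4134 was the highest of all 9 and the other 4 calves of cows were below every calf of a heifer. The log2 fold change was -0.63 (SE 0.36, unadjusted p = 0.101), and -1.18 (unadjusted p = 1.54e-04, adjusted p = 0.688) without calf 4134. Without calf 4122 it was -0.47 (unadjusted p = 0.255). Of the 9 fits with a calf left out, 1 had an unadjusted p under 0.05. The 7 matched genes of small intestine enterocytes summed to 1362 CPM in calf 4134, to between 500 and 645 CPM in the other TRT6_C calves and to between 815 and 1199 CPM in TRT6_H. ANPEP alone gave 1140 of the 1362 CPM in calf 4134, so this sum mostly repeats ANPEP. MEP1B, another member, was 24.9 CPM in calf 4134 and up to 32.2 CPM in TRT6_H.

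Of 14 smooth muscle genes, 11 had a positive log2 fold change (median 0.12) and none was at an unadjusted p under 0.05. The median turned to -0.05 without calf 4140 and to -0.02 without calf 4125. MYH11 had a log2 fold change of 0.11 (SE 0.26) and SYNPO2, an actin-binding protein of smooth muscle, 0.25 (SE 0.23). Summed over the list, calves 4140 and 4151 were highest at 17653 and 17351 CPM and calf 4144 lowest at 9158 CPM, with TRT6_H between 9780 and 15990 CPM. All 11 fibroblast genes were negative (median -0.15). Among them F3, the tissue factor that starts coagulation, was at an unadjusted p of 0.0398 (0.127 without calf 4122), and COL3A1, a fibrillar collagen, had a log2 fold change of -0.09 (SE 0.21).

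**Figure D5:**
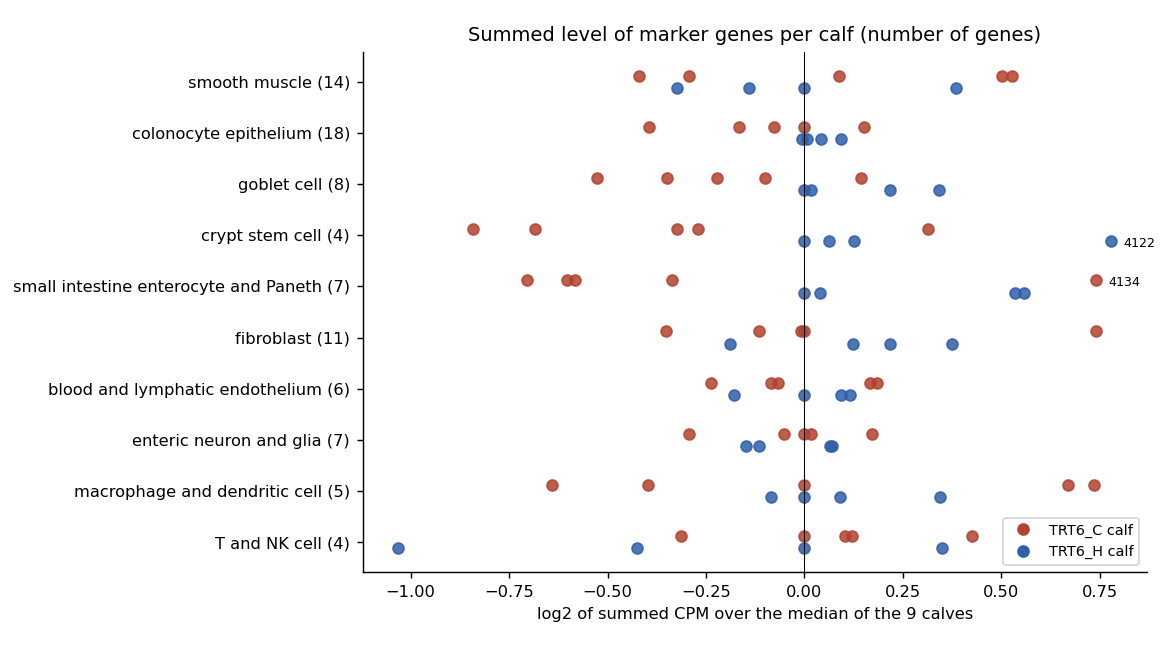
Summed CPM of marker genes in each calf, as log2 of the ratio to the median of the 9 calves, for 10 cell type lists with the number of genes in parentheses. TRT6_C calves (red) and TRT6_H calves (blue) overlap in every list. Calf 4122 is highest for the crypt sum, where OLFM4 gives 3294 of its 3438 CPM. LRIG1 and CD44 were not highest in that calf. Calf 4134 is highest for the small intestine sum, where ANPEP gives 1140 of its 1362 CPM.

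Genes of antigen presentation were mostly lower in mean in the calves of cows. Of 12 genes, 11 had a negative log2 fold change (median -0.32), 3 were at an unadjusted p under 0.05 (ERAP1, BOLA-DQA5 and PDIA3) and none was called. ERAP1, which trims peptides for class I molecules, was 70.0, 42.4, 62.4, 82.9 and 89.4 CPM in TRT6_C and 78.1, 157, 90.1 and 76.9 CPM in TRT6_H. BOLA-DQA5, a class II alpha chain, was 5.34, 3.86, 15.6, 6.78 and 0.859 CPM in TRT6_C and 8.58, 18.2, 19.3 and 11 CPM in TRT6_H. Class II genes of cattle are close copies of each other, so its reads may be divided among relatives. PDIA3, an isomerase of the loading complex, was 297, 392, 441, 272 and 330 CPM against 344, 711, 399 and 415 CPM. All 3 overlapped between groups, calf 4122 was highest for ERAP1 and PDIA3, and without that calf none of the 12 was at an unadjusted p under 0.05 (median -0.18). CD74, the invariant chain carried by antigen-presenting cells, had a log2 fold change of 0.02.

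Folding and lipid synthesis genes leaned towards the heifer side as well. Of 12 heat shock and proteostasis genes, 11 had a negative log2 fold change, and of 15 cholesterol synthesis genes 14 did, with medians of -0.22 and -0.21 and none at an unadjusted p under 0.05. Without calf 4122 the medians were -0.07 and 0.06, with 10 of 12 and 5 of 15 genes negative, so the sign was kept in proteostasis and turned in cholesterol synthesis. HSP90B1, a chaperone of the endoplasmic reticulum, was 389, 687, 638, 433 and 522 CPM in TRT6_C and 527, 1159, 636 and 575 CPM in TRT6_H. HSPA8, the constitutive chaperone of the cytosol, went from -0.25 to -0.02 without that calf and HSP90AA1, an inducible chaperone, from -0.36 to -0.06. SCD, the desaturase that makes monounsaturated fatty acids, was 67.6, 94.3, 92.2, 75.0 and 71.3 CPM in TRT6_C and 93.0, 264, 95.3 and 88.6 CPM in TRT6_H. Its log2 fold change was -0.81 (SE 0.29, unadjusted p = 0.0138), and -0.25 (unadjusted p = 0.152) without calf 4122.

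Glycolysis also kept its sign without calf 4122. Of 15 genes 14 were negative both with and without it, with medians of -0.23 and -0.13 and no gene called. PGK1 and LDHA, enzymes of lower glycolysis, had log2 fold changes of -0.36 (SE 0.19) and -0.29 (SE 0.17), and HK2, a hexokinase, of -0.24 (SE 0.14). LDHA lay between 52.7 and 76.1 CPM in TRT6_C and between 66.4 and 79.1 CPM in TRT6_H.

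Antimicrobial genes had the lowest median of the lists plotted, -0.40 over 9 genes, with 7 negative and 2 positive, 1 at an unadjusted p under 0.05 and none called. S100A12, a calcium-binding protein of neutrophils, was 18.4, 36.9, 64.1, 31.3 and 47.3 CPM in TRT6_C and 61.8, 76.7, 48.9 and 49.4 CPM in TRT6_H. Only calf 4144 of the cow group lay within the heifer group, and the log2 fold change was -0.66 (SE 0.26, unadjusted p = 0.0222, and 0.0845 without calf 4122). BPI, which binds bacterial lipopolysaccharide, leaned the other way with 74.2, 233, 174, 218 and 127 CPM in TRT6_C and 87.6, 118, 84.9 and 136 CPM in TRT6_H (log2 fold change 0.58, SE 0.28, unadjusted p = 0.0583). EBD, enteric beta-defensin, was the most highly counted, at 297 to 712 CPM against 449 to 910 CPM. Its log2 fold change of -0.40 (SE 0.27) was -0.05 without calf 4114 and 0.02 within run part 006. DUOX2, an oxidase that feeds hydrogen peroxide to the mucosal surface, ranged from 1.19 to 21.7 CPM and from 5.42 to 52.2 CPM.

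Of the 18 immune genes that the study listed as representative or most highly expressed, 11 could be matched and were tested. IL10, NFKB1, TNF, TLR2, TLR4, CLDN4 and PGLYRP1 could not be matched. Most of the genes the study chose for mucosal immunity were therefore not compared. Among the 11 tested, a pair was lower at an unadjusted p under 0.05, A2M and STAT3, and none was called. STAT3, which carries cytokine signals to the nucleus, was 211, 235, 272, 214 and 206 CPM in TRT6_C and 265, 318, 352 and 238 CPM in TRT6_H. Calf 4144 reached into the heifer group and calves 4114 and 4146 into the cow group. Its log2 fold change was -0.42 (SE 0.15, unadjusted p = 0.0154), and the unadjusted p stayed under 0.05 when each calf was left out, with a highest value of 0.0445 without calf 4122. The other 9 lay between -0.43 for CALR (SE 0.23) and 0.14 for TPM2 (SE 0.26). AHNAK, LRP1, SLC40A1 and DES were within 0.12 of 0, ACTG1 was at -0.14 and CANX at -0.32.

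The few matched members of immunoglobulin transport and cytokine sensing gave no separation. These were 2 of 12 symbols for immunoglobulin transport and 10 of 40 for cytokines and their receptors. TNF, IL1B, IL6, IL10 and IFNG were not among them. PIGR, the receptor that carries polymeric immunoglobulin to the lumen, had a log2 fold change of 0.15 (SE 0.28) and FCGRT, the neonatal Fc receptor, of 0.01 (SE 0.17). In FCGRT all 9 calves lay between 134 and 184 CPM. Of 10 cytokines and receptors 8 were negative, with a median of -0.12 and none at an unadjusted p under 0.05. IFNGR1, a chain of the interferon gamma receptor, had a log2 fold change of -0.26 (SE 0.15). In iron handling, 9 of 10 genes were negative and 1, FTL, the light chain of ferritin, was at an unadjusted p of 0.0400, with 59.9 to 100 CPM in TRT6_C and 94.1 to 115 CPM in TRT6_H.

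The remaining named genes came from the lists of endothelium, T cells and secretory genes. PDPN, a marker of lymphatic vessels, was 17.2, 12.7, 24.1, 17.0 and 14.6 CPM in TRT6_C and 20.8, 27.7, 21.3 and 23.5 CPM in TRT6_H (unadjusted p = 0.0269, and 0.0849 without calf 4122). PLVAP of fenestrated vessels had a log2 fold change of -0.29 (SE 0.15) and VWF, of blood vessels, of -0.04 (SE 0.16), which was 0.04 without scaling factors. CD8A of cytotoxic T cells was low in both groups, at 1.72 to 7.12 CPM and 1.04 to 4.97 CPM. CELA1, an elastase, rested on 12 reads in TRT6_C against 1 in TRT6_H and was tested only through its counts in TRT6_C, with a ratio of rates of 7.80 with an exact 95% interval for counting error of 1.15 to 334.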

How the data were processed

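Total RNA from colon was sequenced as paired-end reads. The authors aligned reads to the bovine genome UMD3.1 with TopHat2 2.1.1, sorted them with SAMtools 1.4 and counted them per Ensembl gene with HTSeq, and they deposited raw counts. The table totals, 1163791 to 2949345 counts in these calves, were used as library sizes. They are far below the number of reads per sample that the paper reports, so the depth given here is that of the deposited counts. Reads assigned to several genes were left out by the authors. CPM and all tests were computed here: edgeR 4.0.16 under R 4.3.3 (TMM factors 0.892 to 1.16, quasi-likelihood test, Benjamini-Hochberg adjustment, common biological coefficient of variation 0.236), with genes at 1 CPM in at least 4 of 9 columns. DESeq2 1.42.0, other edgeR tests, scalings, filters, run codes and each calf left out were alternatives. Scripts were tested on simulated data.

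Named genes were the 12 of lowest p in each direction, those the study names, and from each list the most highly counted member and up to 3 of lowest p. The members and lists were chosen with earlier results of these data known. Symbols came from the study's gene tables (4046 identifiers, of which 3865 were tested) and matched 34.1% of the 991 list symbols. Coordinates and sequences are not used here. All 36 pairs of libraries differed beyond sampling noise (chi-square per degree of freedom at least 3.87). Each calf is 1 replicate.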

Additional observations from a re-analysis of the deposited data

Results flagged for a closer look

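In each gene or marker sum named above, the highest and lowest calf of each group was set against the gap to its nearest neighbour (Dixon's limit for groups of 4 and 5). Of 178 groups looked at, 22 stood out. The limit flags about 1 in 20 groups of independent, normally distributed values. These groups do not meet that setting, since marker sums share genes with single entries and many genes were picked for a low p. The 22 are therefore a description and are not set against chance. Calf 4122 of the heifer group accounted for 8 of them, all on the high side, with OLFM4 entering both alone and within the crypt sum.

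Calf 4122 was far above the other 3 TRT6_H calves for CALR (1070 CPM, next 657), ERAP1 (157 CPM), HSP90AA1 (774 CPM), OLFM4 (3294 CPM), SCD (264 CPM), ENSBTAG00000009864 (99.6 CPM), MIR2904-1 (4438 CPM) and the summed crypt stem cell genes (3438 CPM). OLFM4 alone gave most of that crypt sum. In the same group, calf 4114 was high for EBD (910 CPM) and for CELA1 (0.451 CPM, a single read), calf 4125 for ENSBTAG00000019097 (13 CPM), and calf 4146 was low for CXCL12 (58.8 CPM, next 80.6).

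Among the calves of cows, calf 4151 was high for CCL14 (17.0 CPM, next 10.8), for COL3A1 (6426 CPM, next 3974) and for the summed fibroblast genes (14031 CPM, next 8392). Calf 4134 was high for ANPEP (1140 CPM, next 487) and for the summed genes of small intestine enterocytes (1362 CPM, next 645), and low for ACTG1 (1026 CPM, next 1339). ANPEP alone gave most of that enterocyte sum. Calf 4144 was high for CXCL5 (12.2 CPM) and for ENSBTAG00000048205 (2663 CPM), calf 4154 for F3 (18 CPM, next 7.53), and calf 4140 for MIR2904-1 (56.2 CPM, next 13.6).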

How the results depend on the processing

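Calls depended on the test. The quasi-likelihood test called 8 genes without a filter on low counts, DESeq2 5, the likelihood ratio test 9 and the exact test 7, against 0 in the test as reported, and leaving out single calves gave 0 to 1 (1 without 4144, 4125 or 4146). Genes at an unadjusted p under 0.05 numbered 408 higher in TRT6_C without the filter, 141 with DESeq2, 385 within run part 006, and 476 higher and 527 lower with the run code as covariate, with 93 lower without scaling factors. Leaving out single calves gave 162 (4151) to 490 (4125) higher and 107 (4122) to 340 (4140) lower, and the cause was not tested. The log2 fold change turned sign for EBD (from -0.40 to 0.02 within run part 006) and, among genes near 0, for SLC40A1 (-0.36 with the run code as covariate, -0.23 within run part 006, -0.26 within the larger run), COL3A1 (0.00 with the run code), VWF (0.04 without scaling factors, 0.07 with the run code, 0.07 within part 006, 0.01 within the larger run) and LRP1 (-0.01 within the larger run). With single calves left out it spanned -0.10 to 0.25 for HSPG2, -0.15 to 0.01 for AHNAK, -0.09 to 0.38 for PIGR, -0.11 to 0.12 for FCGRT, -0.26 to 0.21 for SLC40A1, -0.24 to 0.02 for COL3A1, -0.02 to 0.30 for MYH11, -0.11 to 0.02 for VWF, -0.01 to 0.09 for LRP1, -0.17 to 0.28 for DES and -0.04 to 0.35 for TPM2. No paired analysis was possible because the calf numbers pair no calves across the groups. At 1.02 to 2.58 CPM for 3 reads, genes near 1 CPM cannot show small differences.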

Other observations

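GP2, a receptor for bacteria on the M cells that cover lymphoid follicles, separated into high and low calves, with both kinds in each parity group. It was 152, 153, 13.9, 2.64 and 182 CPM in TRT6_C and 88.5, 4.74, 136 and 0.784 CPM in TRT6_H. The log2 fold change between the parities was 0.76 with an SE of 0.93 and an unadjusted p of 0.429 in edgeR's quasi-likelihood test. Among calves fed at other times GP2 ranged from 1.77 to 307 CPM in TRT0 and from 0 to 325 CPM in TRT12, with medians of 6.97 and 124 CPM.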
